A study of Mus musculus with 3 samples.

Results

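A run of 49 genes on distal mouse chromosome 10, from Dyrk2 to Nab2 and with Hmga2, Cdk4, Ddit3 and Stat6 among them, was described in 3 lines of OP9 cells. The genes were chosen by their place along the chromosome together with the measured values of these same arrays, so their differences between arrays are a description and carry no test. Of the 49 listed genes, 47 had a probe (Ctdsp2 and Kif5a had none) and 36 were bright enough on the 3 arrays to be compared, out of 16390 genes with a probe and 11359 genes compared in the whole series. The gene table holds 61 protein-coding genes between the outermost listed genes. The order along the chromosome is that of the RefSeq gene table of GRCm38.p6, and the build behind the array's own design was not stated.

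OP9 is a stromal cell line from the calvaria, the skull cap, of newborn mice of the background B6C3Fe-a/a-Csf1op/Csf1op, which lack functional macrophage colony-stimulating factor, and blood progenitors are commonly grown on it. The 3 lines were OP9 itself, labelled as the control, OP9 cells that express green fluorescent protein (OP9-GFP), and OP9 cells with both GFP and Delta-like 1, a ligand of Notch receptors (OP9-DL). All lines share the Csf1op background, and none was treated. The labels do not say whether each modified line is a clone or a pool, or what drives its transgene. Each line had 1 array, so no difference has a replicate check, and a difference between lines cannot be told apart from a difference between cultures or arrays. In a bulk sample, fewer cells of a type and less RNA per cell cannot be told apart either.

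Genes that lie side by side on a chromosome need not work together. The run described here mixes cell cycle and growth genes, enzymes that prepare tRNAs and supply protein synthesis, brakes on signalling, and transport proteins. It is well known in cancer biology, because the matching human region holds CDK4, HMGA2, DDIT3 and GLI1 and is often amplified or rearranged in soft tissue tumours. Hmga2 is a chromatin protein of embryonic and mesenchymal cells, Cdk4 is the kinase that D-type cyclins use to inactivate the retinoblastoma protein, Ddit3 (CHOP) is a stress-induced transcription factor, and Stat6 is the transcription factor of interleukin-4 signalling.

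The values are fluorescence intensities on the authors' linear scale, on which the median probe of each array has the intensity 20, and differences are given on the log2 scale with no added constant. A gene was compared if its mean log2 intensity over the 3 arrays was at least 2.62 (an intensity of 6.13, the 25th percentile over probes measured throughout), and differences of at least 2-fold were counted as higher or lower. Between 21920 and 21989 of the 23473 probes had a value on an array. The 9 of 10 stromal markers with a probe had a summed intensity of 31242 (OP9), 37999 (OP9-GFP) and 40708 (OP9-DL). Vim gave most of it, with 18420, 25328 and 32110 in the same order. Gene by gene, the 8 compared markers had a median log2 difference of -0.63 in OP9-DL against OP9. Of these, 3 lay above 0 and 5 below, with 1 higher (Col1a1) and 2 lower (Pdgfra and Col3a1). Thy1 was below the brightness limit, with 1.1, 1.7 and 3.0. The sum for 9 of 11 blood cell markers was 91.6, 62.1 and 860.1 in the same order. Of the OP9 sum, 55.6 came from Cd14. Of the OP9-DL sum, 818.9 came from the mast cell tryptase Tpsab1. The mast cell genes Tpsb2 (1.1, 2.1 and 1.8) and Cpa3 (4.9, 8.1 and 6.7) did not share this rise and were highest in OP9-GFP. Ptprc, the pan-leukocyte marker, had 2.1, 2.5 and 2.8. Kit was measured in OP9 (1.6) and blank in the other lines. The sums were 29.4, 18.6 and 22.8 for 4 endothelial markers and 8.9, 11.4 and 9.9 for 2 of 4 epithelial markers. The part of this blood marker signal in the differences below was not tested.

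On the OP9-DL array most listed genes lay above the other arrays, mostly by less than 2-fold. Against OP9, 10 of 36 were higher and 0 lower, 31 had a difference above 0, and the median log2 difference was 0.43, a 1.35-fold difference. Over all 11359 genes compared, 4.4% were higher and 7.29% lower in that comparison, with a median of 0. Against OP9-GFP, 6 of 36 listed genes were higher and 0 lower, 33 lay above 0, and the median was 0.44 (1.36-fold), beside 2.25% higher, 3.06% lower and a median of -0.03 over all genes. These comparisons share the OP9-DL array. Since the genes were chosen with these values known, nothing is read from the distance to the background.

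OP9-GFP against OP9 showed no such shift over the run as a whole. Here 1 listed gene was higher (Msrb3) and 2 were lower (Ddit3 and Lrp1), 21 of 36 lay above 0, and the median was 0.06. The parts of the run differed: the first 18 compared genes had a median of 0.25, with 15 above 0. The last 18 had -0.16, with 6 above 0. Over all genes the shares were 5.03% higher and 6.81% lower, and the median was 0.02. The OP9-DL array had the highest of the 3 values for 30 of the 36 listed genes (83.3%), compared with 28.7% of all genes and 43.7% of the other 513 genes compared on chromosome 10. Among the 36 it had the lowest value for Inhbe and Ndufa4l2 alone.

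**Figure D1:**
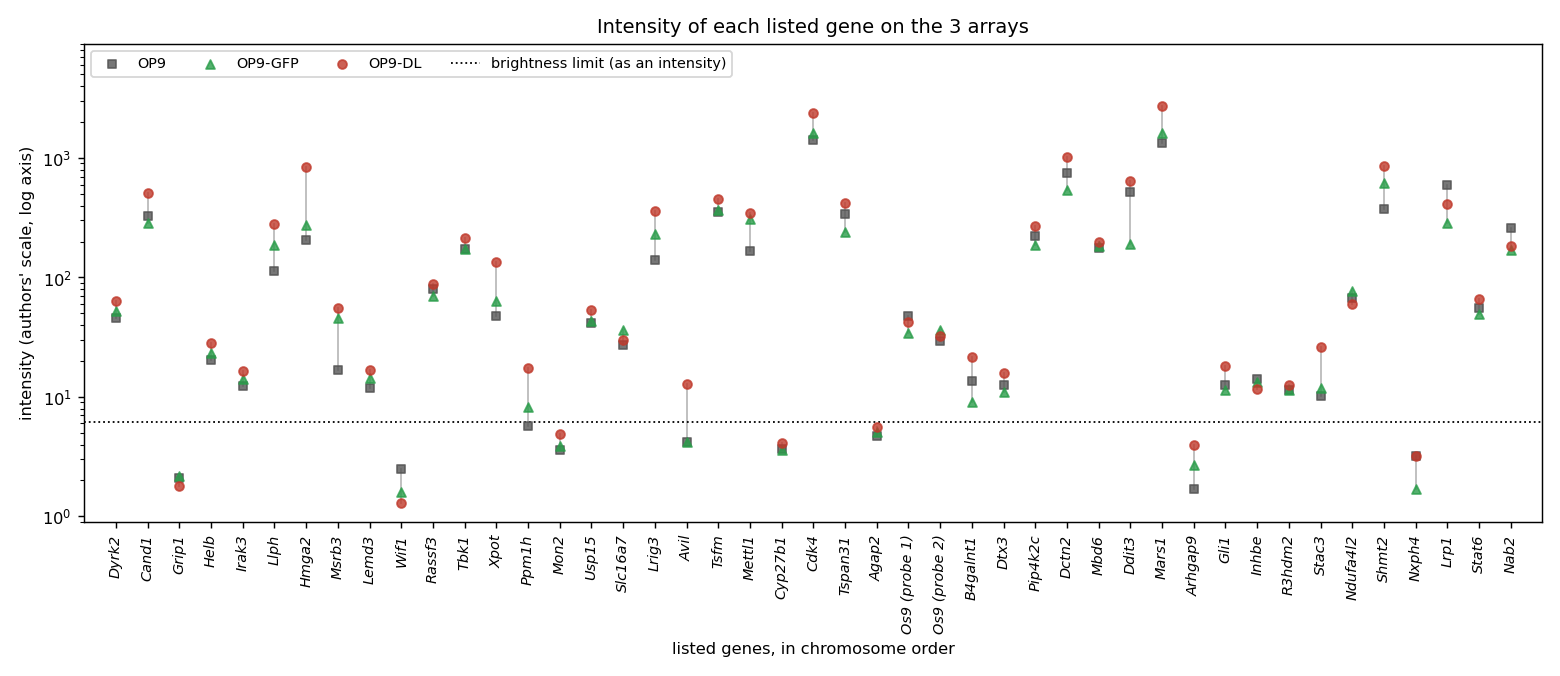
Intensity (log axis) on the OP9 (grey squares), OP9-GFP (green triangles) and OP9-DL (red circles) arrays for each probe of the listed genes with a value on all 3 arrays, in chromosome order. Grey lines join the lowest and highest array, and the dotted line is the brightness limit, which applies to the mean log2 value. The red circle is on top for 30 of the 36 genes compared, and among those genes it lies at least 2-fold above both other arrays at Hmga2, Xpot, Ppm1h and Stac3. Avil, below the limit, has the same shape.

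Hmga2, Xpot, Ppm1h and Stac3 were the listed genes at least 2-fold higher in OP9-DL than on both other arrays, 4 of 36 (11.1%) beside 0.995% of all genes and 5 of the other 513 genes of chromosome 10. Hmga2 had the intensity 206.9 in OP9, 273.4 in OP9-GFP and 847.0 in OP9-DL. Its OP9-DL value was 4.09-fold the OP9 value and 3.10-fold the OP9-GFP value, the widest gap to OP9 in the run. Xpot, the exportin that carries mature tRNAs out of the nucleus, had 47.2, 63.3 and 135.4, with OP9-DL 2.87-fold above OP9 and 2.14-fold above OP9-GFP. Ppm1h, a protein phosphatase, had 5.7, 8.2 and 17.4 (3.05-fold and 2.12-fold). It is the dimmest listed gene that was compared, with a mean log2 intensity of 3.22. Stac3, an adaptor of excitation-contraction coupling in skeletal muscle, had 10.2, 11.8 and 26.0 (2.55-fold and 2.20-fold). In each of these genes OP9 and OP9-GFP lay within 1.5-fold of each other and OP9-DL alone stood apart.

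The start regions of 3 of these genes and of Ddit3, the listed gene with the widest gap between OP9-DL and OP9-GFP, are shown. The 3 were taken from the genes in which OP9-DL stood apart from both other arrays, and Stac3 is named only. The RefSeq promoter table (GRCm38.p6) held 38 of the 49 listed genes. Each line gives the 150 bases just before the annotated start, 5′ to 3′ on the gene's own strand: Hmga2 at chr10:120476470-120476619 (minus strand), Xpot at chr10:121626333-121626482 (minus strand), Ppm1h at chr10:122678612-122678761 (plus strand) and Ddit3 at chr10:127290643-127290792 (plus strand). Capitals mark a GC box or a CCAAT box on either strand.
Hmga2: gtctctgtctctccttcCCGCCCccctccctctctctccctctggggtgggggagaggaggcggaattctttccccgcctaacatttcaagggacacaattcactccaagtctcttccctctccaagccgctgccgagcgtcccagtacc
Xpot: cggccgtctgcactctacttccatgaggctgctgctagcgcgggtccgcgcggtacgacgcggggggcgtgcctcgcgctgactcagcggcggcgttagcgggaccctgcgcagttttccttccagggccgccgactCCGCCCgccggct
Ppm1h: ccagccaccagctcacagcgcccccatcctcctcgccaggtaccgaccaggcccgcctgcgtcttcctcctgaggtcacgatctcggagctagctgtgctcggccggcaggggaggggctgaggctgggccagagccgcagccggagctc
Ddit3: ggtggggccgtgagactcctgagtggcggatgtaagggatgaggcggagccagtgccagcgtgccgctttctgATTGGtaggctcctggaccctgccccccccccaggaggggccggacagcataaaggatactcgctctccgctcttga
The Hmga2 stretch is rich in runs of c and t (64.7% pyrimidines on the strand shown) and holds a GC box that ends 128 bases before the start. The Xpot stretch holds a GC box that ends 8 bases before the start, and 72.7% of its letters are g or c. In the Ppm1h stretch none of the searched letters were found, and in that of Ddit3 there was a CCAAT box read on the other strand. No factor binding or DNA methylation was analysed here, so a match is a match of letters alone.

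Over windows of 300 bases (250 before the start and 50 after it), the GC box GGGCGG or its reverse CCGCCC was in 23 of the 38 listed promoters (60.5%) and in 46.2% of 21263 protein-coding promoters. The CCAAT box (CCAAT or ATTGG) was in 17 (44.7%, against 38.2%), and the TATA box (TATAAA or TTTATA) in 4 (10.5%, against 12.6%). The E-box CACGTG, which reads the same on both strands, was in 7 (18.4%, against 7.84%): Irak3, Wif1, Tbk1, Xpot, Lrig3, Mettl1 and Cdk4. Of those 7 genes, Xpot, Lrig3 and Mettl1 were higher in OP9-DL than in OP9, Irak3, Tbk1 and Cdk4 lay above 0 by less than 2-fold, and Wif1 was not compared. Of all 36 compared listed genes, 10 were higher and 31 lay above 0, beside 4.4% higher over all genes. A link between any of these letters and the differences was not tested. The sequence TTGCATCA or TGATGCAA, a form of the amino acid response element that ATF4 and CHOP bind, was in 2 listed promoters, Avil and Inhbe (5.26%, against 0.865%). The full cAMP response element TGACGTCA was in 0, beside 2.23% of protein-coding promoters. Median GC content of the 150 bases before the start was 64.7% in the listed genes and 58% in protein-coding genes.

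Genes of tRNA handling, protein synthesis and one-carbon metabolism were the role group with the highest median in OP9-DL against OP9. All 6 were compared, 5 were higher, and the median difference was 1.12. In OP9-DL against OP9-GFP, 1 of the 6 (Xpot) was higher, with all 6 above 0 and a median of 0.51. In OP9-GFP against OP9 they also lay above 0, all 6, with a median of 0.57 and none at 2-fold, except that Tsfm fell to the other side of 0 under lowess scaling. The groups by role were formed with earlier results of these data known, so their counts carry no test of a role. Beside the counts of this and the next role groups, 10 of all 36 compared listed genes were higher against OP9 and 6 against OP9-GFP. Over all genes 4.4% and 2.25% were higher.

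Mars1, the cytosolic methionyl-tRNA synthetase, had 1334.6 in OP9, 1619.7 in OP9-GFP and 2721.9 in OP9-DL, 2.04-fold OP9 and 1.68-fold OP9-GFP. Under quantile or lowess scaling of the arrays its difference from OP9 was just below 2-fold. Shmt2, the mitochondrial serine hydroxymethyltransferase that feeds one-carbon units into folate metabolism, had 374.6, 614.9 and 850.7 (2.27-fold and 1.38-fold). Mettl1, which methylates guanosine in tRNA, had 167.6, 307.9 and 346.3. Its OP9-GFP value lay near that of OP9-DL, so OP9 stood apart here, 2.07-fold below OP9-DL. Llph, a nucleolar protein homologous to a learning-associated protein of Aplysia, had 112.4, 188.4 and 277.7, with OP9-GFP between the other arrays. Tsfm, a mitochondrial translation elongation factor, had 351.4, 365.3 and 451.3, a 1.28-fold difference from OP9. In each of the 6 genes the deposited values ran OP9, OP9-GFP, OP9-DL from the lowest to the highest.

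Genes of growth, the cell cycle and transcription were 11 in number, of which 10 were compared. Hmga2 was the one higher in OP9-DL against OP9, 9 of 10 lay above 0, and the median was 0.38. Against OP9-GFP, Hmga2 and Ddit3 were higher, all 10 lay above 0, and the median was 0.34. Cdk4 had 1418.8 in OP9, 1612.5 in OP9-GFP and 2398.4 in OP9-DL, 1.69-fold and 1.49-fold. That is a difference below the 2-fold threshold on a probe far above the brightness limit. Ddit3 had 522.1, 190.0 and 640.7, so that OP9-GFP was 2.75-fold below OP9 and 3.37-fold below OP9-DL, while OP9-DL was 1.23-fold OP9. For Ddit3, unlike the rest of the list, it was OP9-GFP that lay 2-fold or more below both other lines.

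Gli1, the Hedgehog target and transcription factor, had 12.7, 11.4 and 18.2, with OP9-DL 1.43-fold OP9. Stat6 had 55.3, 49.4 and 65.6 (1.19-fold OP9 and 1.33-fold OP9-GFP). Dyrk2, a kinase that phosphorylates p53, had 46.2, 52.5 and 63.5. OP9-DL was on top in these 3 genes, each time by less than 2-fold. Helb, a DNA helicase, had 20.4, 23.5 and 28.5, and Mbd6, a protein with a methyl-CpG-binding-like domain, had 175.7, 183.8 and 198.2. R3hdm2 had 11.4, 11.5 and 12.7, among the narrowest ranges of the run. Nab2, the corepressor of Egr1 and the last gene listed, went the other way, with 260.6, 171.4 and 183.7. Its OP9 value was the highest, 1.42-fold that of OP9-DL.

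The genes of signalling and its brakes were 16, and 10 of them were compared. Against OP9, 2 were higher (Lrig3 and Ppm1h) and 8 lay above 0, with a median of 0.32. Against OP9-GFP, 1 (Ppm1h) was higher and 9 lay above 0, with a median of 0.43. Lrig3, a membrane protein of a family that restrains receptor tyrosine kinases, had 140.7, 233.2 and 363.1, with OP9-DL 2.58-fold OP9 and OP9-GFP in between. Irak3, an inhibitor of Toll-like and interleukin-1 receptor signalling, had 12.4, 14.2 and 16.5. Tbk1, the kinase that activates interferon regulatory factors, had 173.1, 172.7 and 212.1. Both were highest in OP9-DL, by 1.33-fold and 1.23-fold against OP9. Lemd3, an inner nuclear membrane protein that antagonises TGF-beta signalling, had 11.8, 14.5 and 16.7, and Rassf3, a Ras association domain protein, had 79.6, 70.3 and 88.2.

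Pip4k2c, a phosphatidylinositol phosphate kinase, had 220.6, 185.9 and 271.4. Dtx3, a ubiquitin ligase of the Deltex family (relatives of a Notch regulator of the fly), had 12.6, 11 and 15.9, a 1.26-fold difference between OP9-DL and OP9. These genes had OP9-GFP lowest and OP9-DL highest. Inhbe, an activin beta subunit, had 14.1, 13.3 and 11.7, and was one of the 2 compared listed genes lowest in OP9-DL. Lrp1, a large endocytic receptor, was brightest in OP9, with 597.7, 284.1 and 413.5. It was 2.10-fold lower in OP9-GFP than in OP9 and 1.45-fold lower in OP9-DL.

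Of the 9 genes of protein turnover, trafficking and the cytoskeleton 5 were compared, and none reached 2-fold in any comparison. Their median was 0.36 against OP9, with 4 of 5 above 0, and 0.79 against OP9-GFP, with 5 of 5 above 0. Dctn2, a subunit of the dynein activator dynactin, had 746.5, 540.0 and 1019.2, and Cand1, which exchanges the substrate receptors of cullin ubiquitin ligases, had 324.1, 283.4 and 506.9. Tspan31, a tetraspanin that neighbours Cdk4, had 343.0, 241.5 and 418.1. In these 3 genes OP9-GFP was lowest and OP9-DL highest, and OP9 lay between them. Usp15, a deubiquitinase, had 41.4, 43.2 and 53.3. Os9, a lectin of endoplasmic reticulum quality control, was read by 2 probes that differed in direction: 47.2, 34.0 and 42.7 on one, and 29.6, 36.0 and 32.3 on the other. It was the sole compared gene of the list with more than 1 probe, so agreement between probes could not be examined for the other 35.

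In the group of metabolic, membrane and muscle proteins 5 of 7 genes were compared, with 2 higher against OP9 (Msrb3 and Stac3), 2 against OP9-GFP (B4galnt1 and Stac3), and medians of 0.66 and 0.28. Msrb3, a methionine sulfoxide reductase, had 16.7, 46.0 and 55.9. Its OP9 value was at least 2-fold below both other arrays, a pattern that no other listed gene had. B4galnt1, the glycosyltransferase that makes complex gangliosides, had 13.6, 9.1 and 21.5, 2.36-fold between OP9-DL and OP9-GFP. Slc16a7, a monocarboxylate transporter, had 27.3, 36.1 and 30.2, highest in OP9-GFP. Ndufa4l2, a mitochondrial protein induced by hypoxia, had 66.8, 77.0 and 60.4, lowest in OP9-DL.

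The other 11 listed genes with a probe were not compared. Avpr1a had no value on any array, Srgap1 a value in OP9 alone (1.7) and Inhbc one in OP9-GFP alone (1.4). Grip1, Wif1, Mon2, Avil, Cyp27b1, Agap2, Arhgap9 and Nxph4 had values on all arrays but lay below the brightness limit. Avil, an actin-binding protein of the villin family, lay just under it (mean log2 2.61) with 4.2, 4.2 and 12.9, and Ppm1h was the nearest listed gene above it. Wif1, a secreted Wnt inhibitor, had 2.5, 1.6 and 1.3, and Cyp27b1, which activates vitamin D, had 3.7, 3.6 and 4.1. Among the 8 dim genes, Grip1 and Wif1 were lowest in OP9-DL.

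Position within the run went with the size of the shift, differently for each control array. Of the first 18 compared genes, Dyrk2 to Cdk4, all 18 lay above 0 in OP9-DL against OP9, 7 were higher, and the median was 0.57. Of the last 18, 13 lay above 0, 3 were higher, and the median was 0.29. Against OP9-GFP the order was turned, with medians of 0.30 in the first 18 and 0.54 in the last 18. OP9-GFP against OP9 had 0.25 and -0.16. The dimmer and the brighter 18 genes had similar medians against OP9 (0.44 and 0.41), and against OP9-GFP the brighter ones had the larger (0.55 against 0.28).

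Genes inside the run that are not on the list moved with it in part. Of 9 such genes with a probe, 5 were compared. Rxylt1, a glycosyltransferase of dystroglycan that lies between Xpot and Ppm1h, had 354.0, 517.7 and 1031.7 (2.91-fold OP9 and 1.99-fold OP9-GFP). Tmbim4, a Golgi membrane protein, had 1258.5, 837.0 and 1824.6, and Atp23 had 10.4, 14.1 and 15.8. Slc26a10 was almost equal on the 3 arrays, at 85.6, 85.0 and 84.9, and Arhgef25 had 125.6, 83.8 and 129.1. The other 4 were too dim to compare: 1700006J14Rik had 3.8, 3.0 and 4.6, Tbc1d30 had 6.8, 5.1 and 5.2, BC048403 had 4.4, 5.4 and 8.8, and 4921513I03Rik had 1.2 in OP9 and 1.7 in OP9-DL with no value in OP9-GFP. With these genes added, 11 of 41 were higher against OP9 with a median of 0.45, and 7 of 41 against OP9-GFP with a median of 0.47.

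The run had no clear edge in OP9-DL against OP9. The 10 compared genes just before Dyrk2 all lay above 0 in OP9-DL against OP9, with a median of 0.32, and 8 of 10 against OP9-GFP, with a median of 0.34. Among them the chaperonin subunit Cct2 had 2210.6, 2805.9 and 4850.0, and the nucleoporin Nup107 had 175.5, 228.5 and 311.6. Mdm2, the ubiquitin ligase of p53, which in human tumours is often amplified along with CDK4, had 346.1, 169.3 and 355.3. It was thus 2.10-fold above OP9-GFP and within 1.03-fold of OP9, the same shape as Ddit3. The other 7 lay above OP9 by less than 2-fold in OP9-DL, with log2 differences of 0.82 for Rap1b, 0.64 for Yeats4, 0.33 for Cpsf6, 0.30 for Slc35e3, 0.25 for Best3, 0.20 for D630029K05Rik and 0.15 for Mdm1. Of these, Cpsf6 and Best3 lay below 0 against OP9-GFP. Of the 10 genes after Nab2, 6 lay above 0 against OP9 and 7 against OP9-GFP, with medians of 0.47 and 0.33. Prim1, a DNA primase subunit, had 602.8, 981.5 and 1495.1, and Naca, a ribosome-associated chaperone subunit, had 6367.2, 6171.4 and 10487.0. Both were highest in OP9-DL. Stat2, a transcription factor of interferon signalling, had 355.0, 31.6 and 72.5, and was lower in both modified lines. The other 7 split by direction against OP9, with log2 differences of 0.96 for Timeless, 0.76 for Atp5b, 0.71 for Spryd4 and 0.23 for Sdr9c7, and of -0.07 for Mip, -0.10 for Rdh7 and -0.69 for Rbms2.

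**Figure D2:**
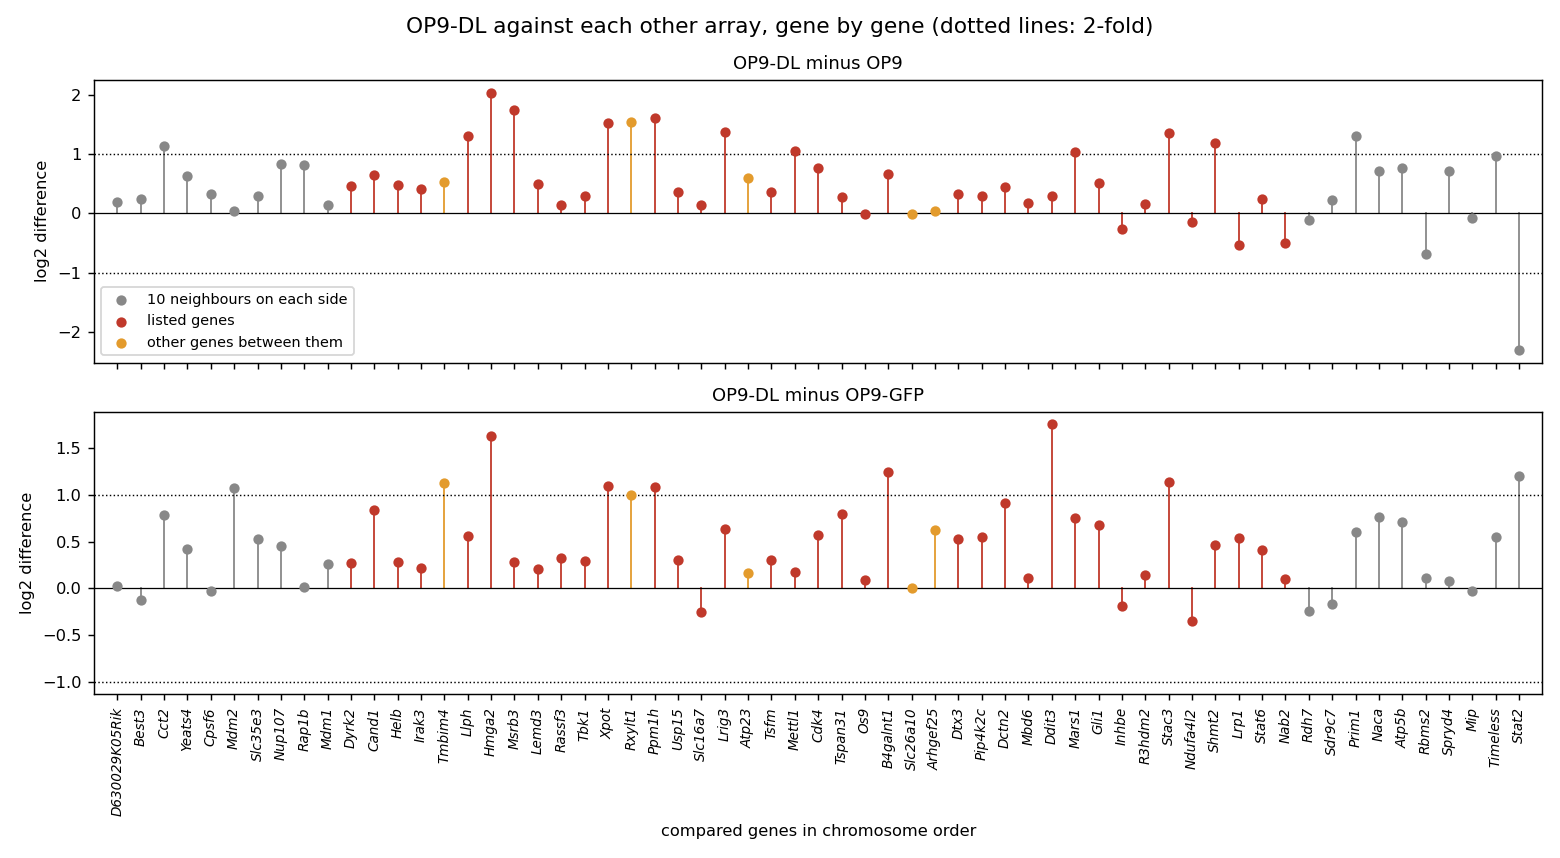
Log2 difference of OP9-DL from OP9 (top) and from OP9-GFP (bottom) for each compared gene in chromosome order: listed genes in red, other genes between them in orange and the 10 neighbours on each side in grey. Dotted lines mark 2-fold. The grey genes on the left lie above 0 in the top panel like the red ones (medians 0.32 and 0.43), and Stat2 at the right end lies at -2.29.

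Along the whole chromosome, the 549 compared genes were taken in 22 groups of neighbours, 25 genes each and 24 in the last. In OP9-DL against OP9, the medians of groups 1 to 10, from Plekhg1 to Agpat3, lay between -0.22 and 0.20, and 50.4% of those 250 genes were above 0. Those of groups 11 to 14, from Rrp1 to 1700028I16Rik, lay between 0.11 and 0.34, overlapping both other spans. Of their 100 genes 64% were above 0, with a median of 0.19. Those of groups 15 to 22, from Txnrd1 to the last gene, Olfr824, lay between 0.20 and 0.64, and 80.4% of those 199 genes were above 0, with a median of 0.38. The spans were set after the medians had been seen. The listed genes fill most of groups 19 (20 of its genes, median 0.54) and 20 (16 of its genes, median 0.30). Group 18, from Zdhhc17 to Nup107, which ends just before Rap1b and Mdm1, the nearest neighbours of Dyrk2, had a median of 0.64, the highest of all 443 such groups in the genome. Group 17 of chromosome 10 came next (0.56), then group 5 of chromosome 12 (0.540), above group 19 (0.536). Groups 2, 3 and 4 of chromosome 12 had 0.50, 0.49 and 0.49, so a run of raised neighbours was not particular to chromosome 10. In OP9-DL against OP9-GFP the highest of the 443 was group 20, from B4galnt1 to Spryd4, with 0.53. Since 16 of its 25 genes are listed and were chosen with these values known, nothing is read from its rank. Places 2 and 3 in that comparison were groups of chromosome 12, with 0.44 and 0.35.

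**Figure D3:**
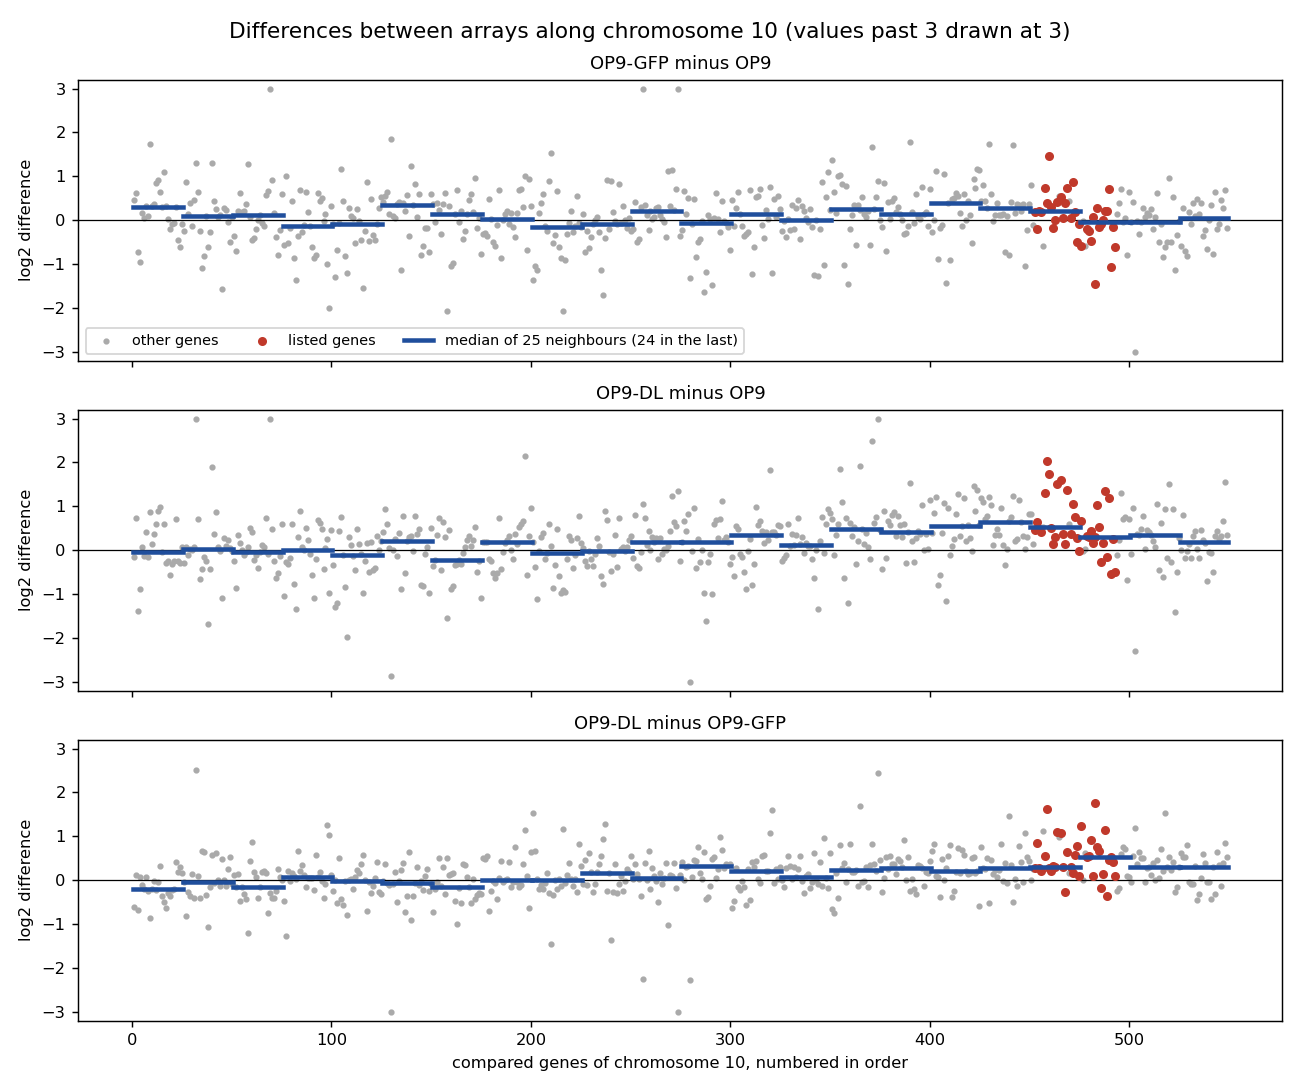
Log2 differences of the 549 compared genes of chromosome 10, numbered in order, for the 3 comparisons. Grey points are genes that are not listed, red points the listed genes, and blue lines the medians of 25 neighbours (24 in the last group). In the middle panel the blue lines stay between -0.22 and 0.20 over the first 10 groups and between 0.11 and 0.34 over groups 11 to 14. Over the last 8 they lie between 0.20 and 0.64, with no step where the red points begin or end.

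The shift was shared by other genes of that stretch, and chromosome 10 was not the chromosome with the highest median. Its 549 genes had medians of 0.20 against OP9 and 0.11 against OP9-GFP. The other 19 chromosomes ranged from -0.24 (chromosome 11) to 0.33 (chromosome 12) against OP9, and from -0.24 (chromosome 18) to 0.27 (chromosome 12) against OP9-GFP. Without the listed genes, chromosome 10 had 0.17 and 0.08.

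**Figure D4:**
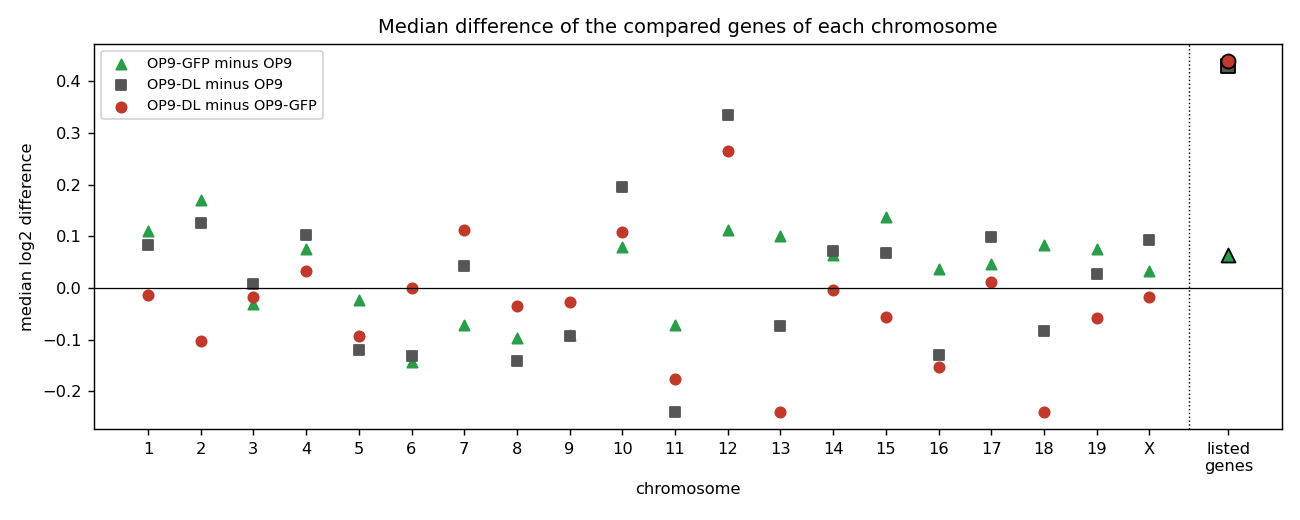
Median log2 difference of the compared genes of each chromosome for OP9-GFP minus OP9 (green triangles), OP9-DL minus OP9 (grey squares) and OP9-DL minus OP9-GFP (red circles), with the listed genes at the right. The listed genes lie at 0.43 and 0.44 in the OP9-DL comparisons and at 0.06 in OP9-GFP minus OP9, and among whole chromosomes number 12 is highest in both OP9-DL comparisons.

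Partners of the listed genes, most of them on other chromosomes, were read from lists drawn up for this description. The counts of all these lists stand beside the shares over all genes. In OP9-DL these were 4.4% higher and 7.29% lower against OP9, and 2.25% and 3.06% against OP9-GFP. In OP9-GFP against OP9 they were 5.03% and 6.81%. Whether any list differed from these shares was not tested. On chromosome 10 itself lie Mthfd1l and Aldh1l2 of the one-carbon list, Cdk2 of the Cdk list, Stat2 of the Stat6 list, and Mdm2, Sesn1 and Perp of the p53 list, with Mdm2 and Stat2 among the 10 neighbours on either side. Of 14 compared aminoacyl-tRNA synthetases other than Mars1, 1 (Wars) was higher in OP9-DL against OP9, 12 lay above 0 and the median was 0.38, while against OP9-GFP none was higher and the median was -0.01. Mars1 lay above these medians, with 1.03 and 0.75. The ATF4 list had 18 compared genes, Atf4 itself and targets of ATF4, the factor that induces Ddit3 under amino acid shortage. Of these, 5 were higher against OP9 (Trib3, Psat1, Slc7a5, Slc3a2 and Nupr1) and 1 was lower (Cebpb), with a median of 0.38. Against OP9-GFP, Trib3 and Chac1 were higher, with a median of 0.21. Chac1, which degrades glutathione, had 417.1, 141.6 and 470.5, lowest in OP9-GFP as Ddit3 was. The list as a whole did not share this shape. In OP9-GFP against OP9, 11 of its 18 genes lay above 0 and the median was 0.08. There 1 was higher (Psat1) and 2 were lower (Chac1 and Pck2). Of 10 one-carbon enzymes, 1 was higher and 2 were lower in OP9-DL against OP9, with a median of -0.14. The higher one, Aldh1l2, also lies on chromosome 10, outside the run.

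The list around Cdk4 had 17 compared genes: D-type and E-type cyclins, Cdks and their inhibitors, and Rb and E2f genes. Against OP9, 2 were higher (Ccne2 and Cdk2) and 1 was lower (Cdkn1c), with a median of 0.28. Against OP9-GFP, 2 were higher (Cdkn2a and Rb1), with a median of -0.05. Neither D-type cyclin compared, Ccnd2 or Ccnd3, was 2-fold apart in an OP9-DL comparison. Cyclin D2 (Ccnd2) had 3358.9, 1421.6 and 2032.0, and Rb1 had 1404.6, 279.3 and 992.9, both lowest in OP9-GFP. Cdk2, which lies on chromosome 10 beyond Nab2, had 30.6, 59.9 and 86.9. Of 6 genes of the Hmga2 and let-7 list, 2 were higher against OP9 (Hmga1 and Igf2), and 1 (Igf2bp3) against OP9-GFP. Hmga1, the paralog of Hmga2 on chromosome 17, had 280.8, 530.9 and 861.9, in the same order of arrays as Hmga2.

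Of 6 compared Hedgehog pathway genes around Gli1 none was 2-fold apart in any comparison, and Ptch1, the other common Hedgehog target, had a value in OP9 alone (2.0). Of 13 genes that act with Tbk1 and Irak3, 0 were higher and 3 lower against OP9, with a median of -0.61. The 12 interleukin-4 and Stat6 pathway genes, again 0 higher and 3 lower, also had a median of -0.61. Both lists were also low in OP9-GFP against OP9, with medians of -0.37 and -0.31. In OP9-DL against OP9-GFP their medians were -0.02 and -0.06, with 6 of 13 and 4 of 12 genes above 0. Of 11 p53 and Mdm2 genes 1 was higher and 1 lower against OP9, with a median of 0.04. Against OP9-GFP 4 were higher (Mdm2, Gadd45a, Zmat3 and Trp53inp1), beside 2.25% of all genes. This list was low in OP9-GFP against OP9, with 3 lower, 9 of 11 below 0 and a median of -0.58. The 12 reference genes had medians of 0.09 and -0.02 in the OP9-DL comparisons.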

How the data were processed

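RNA of each line was measured on 1 one-colour array. Column-purified total RNA was amplified as amino allyl RNA and labelled with Cy5 following Toray, the array maker, per the labels' protocols. The deposited values are linear intensity, and the authors scaled each array to a median of 20, as the values themselves show. Nothing states the scanner, the background correction or why cells are blank. No further scaling was applied.

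Probes with a value on all 3 arrays (20775 of 23473) and a mean log2 intensity at or above their 25th percentile were compared (15581). Of all probes, 16631 had 1 gene symbol in the platform table and 6842 had none or several and were not named. Symbols were updated and genes ordered through the RefSeq table of GRCm38.p6 (Mars became Mars1). Genes with several probes took the mean log2 value. With 1 array per line no test was run, and the number of arrays limits the precision. The members and all lists were chosen with earlier results of these data known. Every listed gene with a probe, the other genes between them, the 10 neighbours on each side, and the highest, lowest or role-defining genes of each list were named; some list genes were chosen after their values were seen.

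Alternatives were quantile and lowess scaling (span 0.3), no limit or the 50th percentile, a constant of 2 before log2, blanks at the lowest value, the brightest probe per gene, all genes between the outermost listed genes, and thresholds of 1.5-fold and 3-fold. The procedure was tested on simulated arrays. Python 3.11.15 was used with statsmodels 0.14.6, pandas 2.3.3, numpy 2.4.6, matplotlib 3.10.9 and scipy 1.17.1.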

Additional observations from a re-analysis of the deposited data

How the results depend on the processing

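Of 54 recomputed values (counts and medians of the listed genes), 48 stayed within the tolerance set for them (1.5 times for a count, 0.1 on the log2 scale for a median), and no median changed sign. The other 6 were counts. With the limit at the 50th percentile, 3 listed genes were 2-fold apart in OP9-DL against OP9-GFP instead of 6, all higher, beside 1.91% of all genes. At 1.5-fold, 8 were apart in OP9-GFP against OP9 (5 higher and 3 lower, beside 14.28% and 16.04% of all genes) and 12 in OP9-DL against OP9-GFP (all higher, beside 7.39%). At 3-fold, 0 were apart in OP9-GFP against OP9, beside 1.38% of all genes higher and 2.31% lower. In OP9-DL, 3 were higher against OP9 (1.46% of all genes) and 2 against OP9-GFP (0.695%). At the 50th percentile 27 listed genes were compared instead of 36. The higher genes lost there were the dim ones, Ppm1h, B4galnt1 and Stac3, with mean log2 intensities of 3.22, 3.79 and 3.87. Ppm1h and Stac3 are among the genes in which OP9-DL stood apart from both other arrays. The other changes follow from a moved threshold. Mars1 against OP9 was 0.96 under quantile and 0.94 under lowess scaling, just under 2-fold, and Ppm1h against OP9-GFP was 0.93 with the constant of 2. No paired analysis was possible because each line had 1 array. No replicate measures the precision of dim genes such as Ppm1h, B4galnt1, Gli1 and Stac3, and 35 of 36 genes rest on 1 probe.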

Other observations

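The stretch from Txnrd1 to Nup107, before the listed genes on chromosome 10, was set after the medians had been seen. In it OP9-DL was 2-fold or more above OP9 for 20 of 100 compared genes and below it for 2, with a median of 0.48. Over all genes 4.4% were higher and 7.29% lower. Against OP9-GFP 4 of the 100 were higher and none lower, beside 2.25% and 3.06% of all genes, with a median of 0.26. OP9-GFP against OP9 also had 74 of these 100 genes above 0, with a median of 0.21. The first 18 listed genes had a median of 0.25 in that comparison, with 15 of 18 above 0, and the last 18 had -0.16. Among the genes before the list, Igf1, the growth factor, lay 3.33 above OP9 on the log2 scale and 2.43 above OP9-GFP, and Timp3, an inhibitor of matrix proteases, 2.49 and 0.83. Both were chosen after their values were seen. After the listed genes, the 49 genes from Mip to Olfr824 had medians of 0.26 against OP9 and 0.31 against OP9-GFP.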
